A study of Homo sapiens with 8 samples.

Results

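The 53 mitotic spindle and checkpoint genes described here were picked by symbol from the gene rows of bulk RNA-seq counts of docetaxel resistant and sensitive prostate cancer cells. All 53 had a row among the 60554 rows of each library, all were protein coding, and all 53 were among the 20238 genes with enough counts to be tested. They were ordered by role into checkpoint proteins (6), kinetochore proteins (9), kinesins (8), kinases and cyclins with the chromosomal passenger complex (14), anaphase and cytokinesis factors (9), spindle and chromosome proteins (5) and transcription factors (2). The cells were DU145 and PC3, human prostate cancer lines established from a brain and a bone metastasis, each with 1 docetaxel resistant variant and its sensitive parental line. There were 8 libraries, 2 each for DU145 resistant, DU145 sensitive, PC3 resistant and PC3 sensitive cells. Per the labels, the resistant cells were kept in 10 nM docetaxel dissolved in DMSO and the sensitive cells in 0.1% DMSO, so that resistance and drug in the medium cannot be told apart. The labels do not say whether the drug was withdrawn before harvest.

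Docetaxel is a taxane that binds beta-tubulin and stabilises microtubules, which disturbs the mitotic spindle. Kinetochores without a proper microtubule attachment recruit the checkpoint proteins MAD1, MAD2, BUB1, BUBR1, BUB3 and TTK, which keep CDC20 from activating the anaphase promoting complex (APC/C). Once all chromosomes are attached, the APC/C marks securin and cyclin B for destruction, the sister chromatids separate, and the cell leaves mitosis. Most of these genes are transcribed mainly in the G2 and M phases of the cell cycle, so in bulk RNA fewer cells in these phases and less RNA per such cell cannot be told apart.

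Total counts were 31685148 to 43045127 per library, and the 53 genes took 0.897% to 1.23% of them. Levels are given as CPM, counts scaled to a TMM-adjusted total of 1000000 over the tested genes. The counts of the 2 libraries of each group differed by more than sampling noise, and no label says whether they were separate cultures. The p-values thus cover the spread between libraries, which may be technical. The sums over 4 epithelial markers were 202 to 378 CPM in DU145 resistant against 2424 to 4123 CPM in DU145 sensitive libraries, and 433 to 539 CPM in PC3 resistant against 294 to 422 CPM in PC3 sensitive libraries. KRT8 and CDH1, defining epithelial genes, were low in DU145 resistant cells, at 28.2 and 29.7 CPM and 0.364 and 0.472 CPM, against 2166 and 1247 CPM and 24.2 and 20.9 CPM in DU145 sensitive cells. KRT18 was lower too, at 330 and 155 CPM in DU145 resistant against 1911 and 1136 CPM in DU145 sensitive cells. EPCAM was near its sensitive level, at 19.2 and 16.9 CPM in DU145 resistant against 21.7 and 19.8 CPM in DU145 sensitive cells. Of the prostate luminal markers, KLK3 had no count in any library. TMPRSS2 stayed under 0.1 CPM in DU145 and had 1.62 and 2.05 CPM in PC3 resistant against 0.0305 and 0.0649 CPM in PC3 sensitive libraries. Fibroblast marker sums were 5.47 to 7.03 CPM in DU145 resistant against 5.13 to 7.07 CPM in DU145 sensitive libraries, and 25.1 to 31.6 CPM in PC3 resistant against 24.1 to 35.2 CPM in PC3 sensitive libraries. The 4 immune markers summed to at most 1.01 CPM in any library. Endothelial markers summed to 0.333 to 0.455 CPM in DU145 resistant against 0.959 to 1.40 CPM in DU145 sensitive libraries, and to 20.0 to 49.0 CPM in PC3 resistant against 7.10 to 7.23 CPM in PC3 sensitive libraries. In PC3 resistant libraries PECAM1 had 12.6 and 24.4 CPM and KDR 7.13 and 24.3 CPM. VWF and CDH5 had at most 0.292 CPM there. The part of these marker differences in the mitotic results was not tested.

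The mitotic genes moved together between libraries of the same group. In DU145 resistant cells, 50 of the 53 genes were higher in replicate 1 than in replicate 2, with a median ratio of 1.30. In PC3 resistant cells the order was turned round, with 4 of 53 genes higher in replicate 1 and a median ratio of 0.810. In DU145 sensitive cells 44 genes and in PC3 sensitive cells 46 genes were higher in replicate 1, with median ratios of 1.12 and 1.11. Over all tested genes, 48.7% to 50.2% were higher in replicate 1. The geometric mean over the 53 genes was 170.8 and 132 CPM in the DU145 resistant libraries, against 145 and 129 CPM in the DU145 sensitive libraries. It was 138 and 169 CPM in the PC3 resistant libraries, against 149.7 and 135 CPM in the PC3 sensitive libraries. The groups therefore overlapped in this mean in both lines, and DU145 resistant replicate 1 and PC3 resistant replicate 2 stood above the other libraries of their line.

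**Figure D1:**
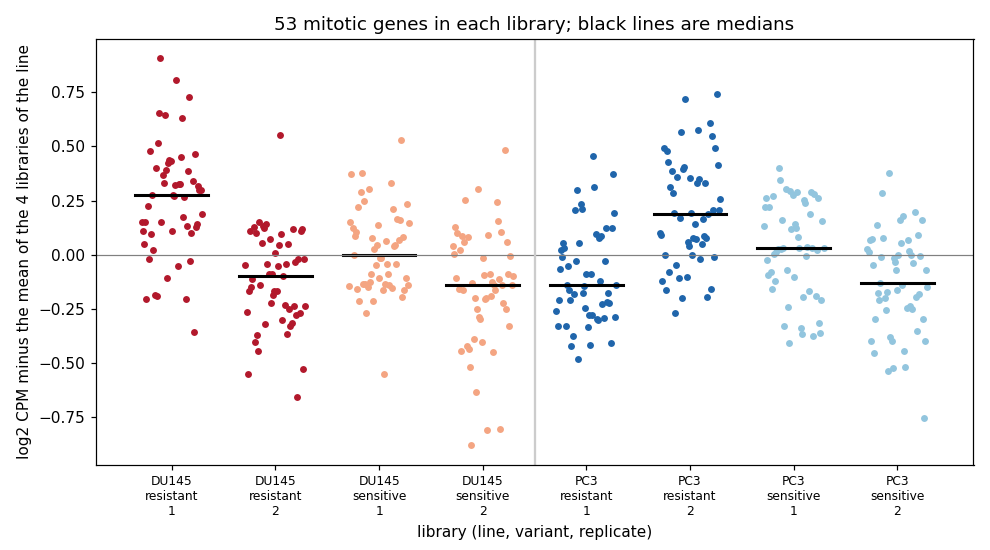
Levels of the 53 mitotic genes in each of the 8 libraries. The y axis is log2 CPM minus the mean of the 4 libraries of that line, each point is 1 gene, and black lines are medians over the genes. The medians were 0.27 and -0.10 in DU145 resistant against 0.00 and -0.14 in DU145 sensitive libraries, and -0.14 and 0.19 in PC3 resistant against 0.03 and -0.13 in PC3 sensitive libraries.

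Many promoters of genes transcribed in G2 and M share short elements, the cell cycle genes homology region (CHR), which is read by MuvB complexes with the factors B-MYB or FOXM1, and CCAAT boxes, which are read by NF-Y. The RefSeq promoters on GRCh38.p14, from 250 bases before to 50 after each start, had an entry for 44 of the 53 genes. The letters TTTGAA or TTCGAA, read on both strands (TTTGAA is TTCAAA on the other), lay in the window of 33 of these 44 genes (75%), and in 5336 of all 27305 genes of the table (19.5%). CCAAT or its reverse ATTGG lay in 35 of 44 windows (79.5%), against 10846 of 27305 (39.7%). Both were in 28 of 44 (63.6%), against 9.02% of all genes. The CHR letters were in 13 of the 16 members with an entry that changed in either line (81.2%) and in 20 of the 28 that did not pass in either (71.4%), so the letters were common in both. A letter match is a description and not a bound site. The sequences below are examples from changed members with 1 entry, with matched letters in the bases shown. They are written 5′ to 3′ on the strand of the gene, as 100 bases up to the start or as a 30 base run around the CHR letters. Capitals mark the CHR and CCAAT letters on either strand. The 30 base runs, of KIF23, ANLN and HMMR, lie wholly within annotated exons of these genes.
KIF20B, chr10:89701490-89701589, plus strand: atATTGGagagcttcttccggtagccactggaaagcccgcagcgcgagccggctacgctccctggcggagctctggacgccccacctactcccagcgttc
KIF23, chr15:69414282-69414311, plus strand: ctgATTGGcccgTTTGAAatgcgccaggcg
KIF18A, chr11:28108157-28108256, minus strand: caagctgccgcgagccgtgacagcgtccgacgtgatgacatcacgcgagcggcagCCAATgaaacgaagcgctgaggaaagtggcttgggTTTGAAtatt
TOP2A, chr17:40417897-40417996, minus strand: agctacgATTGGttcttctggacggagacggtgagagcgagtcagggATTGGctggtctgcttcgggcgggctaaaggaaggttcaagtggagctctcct
MKI67, chr10:128126424-128126523, minus strand: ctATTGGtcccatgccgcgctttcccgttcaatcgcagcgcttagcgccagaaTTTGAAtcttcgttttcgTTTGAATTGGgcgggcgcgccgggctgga
ANLN, chr7:36389827-36389856, plus strand: gcgctgaaaTTCAAATTTGAAcggctgcag
HMMR, chr5:163460595-163460624, plus strand: gtggggagaTTTGAATTTGAAaccggtagg
In MKI67, a TTTGAA and an ATTGG overlap by a base. In ANLN and HMMR a pair of matches lies back to back, in ANLN as TTCAAA and TTTGAA and in HMMR as TTTGAA read in the same direction. KIF18A and KIF23 hold a CCAAT or ATTGG before their TTTGAA. In KIF20B and TOP2A the printed 100 bases hold only CCAAT letters, and their CHR letters lie elsewhere in the window.

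A minority of the mitotic genes differed between resistant and sensitive cells, 19 of them in 1 line only and 2 in both. In DU145, 9 genes were higher in resistant cells (BUB3, NDC80, ZWINT, KIF20B, KIF23, AURKB, TPX2, FZR1 and MYBL2) and 3 were lower (CDC25B, ECT2 and TOP2A). In PC3, 9 genes were higher (BUB3, AURKB, UBE2C, PTTG1, ANLN, NUSAP1, HMMR, MKI67 and FOXM1) and 2 were lower (KIF18A and WEE1). BUB3 and AURKB were higher in both. With each line fitted on its own libraries alone, both genes lost their DU145 calls. In those fits TPX2 passed in both lines. These are edgeR quasi-likelihood tests at a Benjamini-Hochberg adjusted p under 0.05 over all tested genes. The 12 genes called in DU145 were 22.6% of the members, against 27.8% of all tested genes, of which 12.4% were higher and 15.4% lower. In PC3 the 11 called genes were 20.8% of the members, against 35.6% of all tested genes, of which 18.6% were higher and 17% lower. The members thus passed no more often than genes in general, and the shares were not tested against each other. The median log2 fold change over the members was 0.12 in DU145 and 0.06 in PC3, beside 0 and 0.01 over all tested genes. Changes were mostly under 2-fold, with an absolute log2 fold change over 1 in 3 members in DU145 and in 1 in PC3.

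**Figure D2:**
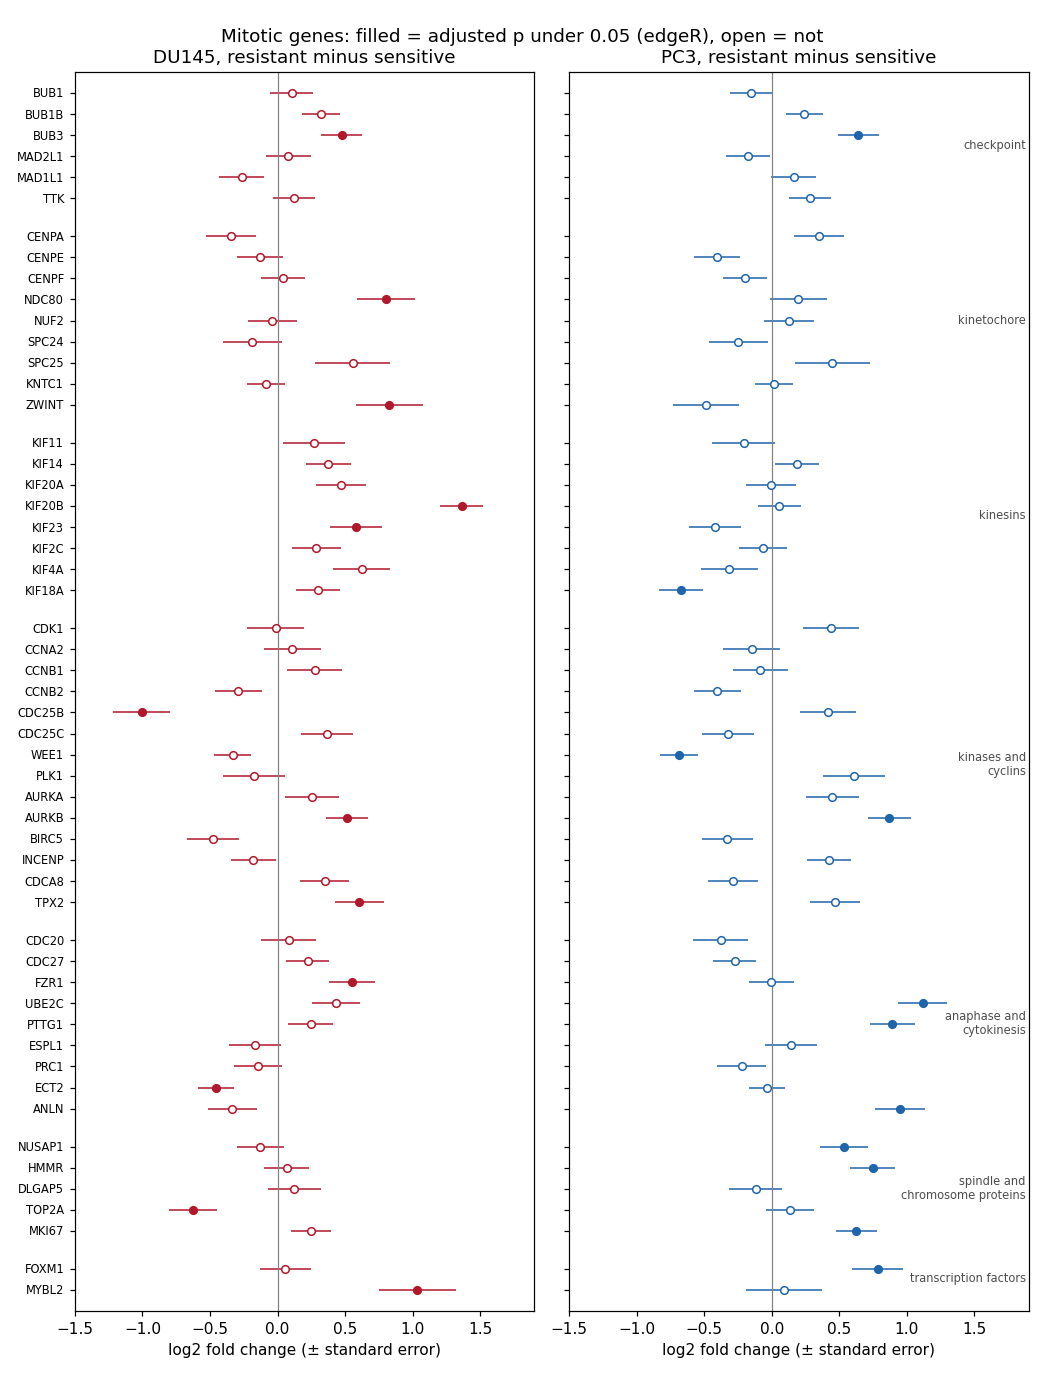
Log2 fold change, resistant minus sensitive, of the 53 mitotic genes in DU145 (left) and PC3 (right), with bars of 1 standard error. Filled points passed an adjusted p under 0.05 (edgeR) and open points did not, and genes are grouped by role. All 8 genes grouped as kinesins lie to the right of 0 in DU145, as do 34 of all 53 genes, and KIF20B has the largest value at 1.36. CDC25B lies farthest to the left in DU145, at -1.01.

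The number of members that passed changed with the libraries used. These counts are not set beside the share of all tested genes in the same fits. Without DU145 resistant replicate 1, the library with the highest mitotic level, 1 member was higher in DU145 and 5 were lower, and without DU145 sensitive replicate 2, 1 was higher and 1 lower. Without DU145 resistant replicate 2, 15 were higher and 1 lower, and without DU145 sensitive replicate 1, 1 was lower. Leaving out PC3 sensitive replicate 1 or 2, which bear on DU145 only through the shared spread, scaling and filter, left 5 higher in DU145. In PC3, 5 were higher without PC3 resistant replicate 2 or without PC3 sensitive replicate 2, and 1 was lower without PC3 resistant replicate 1 or PC3 sensitive replicate 2. KIF20B and CDC25B in DU145, and WEE1, AURKB, UBE2C, PTTG1 and ANLN in PC3, passed whichever single library was left out. As a coarser reading, 19 members had both DU145 resistant libraries above both sensitive ones and 9 below, beside 61.3% of all tested genes that separated, 29.2% above and 32.1% below. In PC3, 18 members were above and 11 below, beside 71.2% of all tested genes, 36.1% above and 35.1% below.

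Of the checkpoint genes, BUB3 was the only 1 to pass the threshold, with higher levels under resistance in DU145 and in PC3. BUB3 (chr10:123154402-123170467, plus strand, on hg38) binds phosphorylated KNL1 and brings BUB1 and BUBR1 to the kinetochore. It had 405 and 324 CPM in DU145 resistant libraries, against 266 and 259.5 CPM in DU145 sensitive libraries (log2 fold change 0.47 ± 0.15 SE, edgeR adjusted p = 0.0373). In PC3 it had 348 and 392 CPM in resistant and 251 and 225 CPM in sensitive libraries (log2 fold change 0.64 ± 0.15, adjusted p = 0.00755). The resistant libraries lay above the sensitive ones in both lines. The call in DU145 was lost without any of 5 libraries, namely DU145 resistant replicate 1, either DU145 sensitive or either PC3 sensitive library (adjusted p up to 0.266), and that in PC3 without PC3 resistant replicate 2 or PC3 sensitive replicate 2 (up to 0.0872). The other 5 genes did not pass in either line. These were BUB1 and TTK, kinases that start checkpoint signalling, BUB1B, which encodes BUBR1, and MAD1L1 and MAD2L1, which encode the MAD1 scaffold and the MAD2 inhibitor of CDC20. Their log2 fold changes ran from -0.26 for MAD1L1 to 0.32 for BUB1B in DU145 and from -0.18 for MAD2L1 to 0.28 for TTK in PC3. For BUB1B and TTK the resistant libraries lay above the sensitive ones in both lines, and for MAD1L1 they lay below in DU145.

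At the kinetochore, NDC80 and ZWINT were higher in DU145 resistant cells, and none of the 9 genes passed in PC3. NDC80 (chr18:2571557-2616635) encodes the subunit of the NDC80 complex that grips the microtubule. Its level was 221 and 154 CPM in DU145 resistant and 117 and 98.2 CPM in DU145 sensitive libraries, and these did not overlap (log2 fold change 0.80 ± 0.21, edgeR adjusted p = 0.0176). In PC3, NDC80 had 119 and 173 CPM in resistant and 137 and 117 CPM in sensitive libraries, with overlap (adjusted p = 0.514). ZWINT (chr10:56357227-56361273) encodes a KNL1 partner that helps to bring the ROD, ZWILCH and ZW10 complex to the kinetochore. ZWINT stood at 239.9 and 157 CPM in DU145 resistant against 141 and 82.9 CPM in DU145 sensitive libraries (log2 fold change 0.83 ± 0.25, adjusted p = 0.0294). The lower resistant library was only a little above the higher sensitive one. In PC3 the order was the opposite, at 437 and 466 CPM in resistant and 654 and 612 CPM in sensitive libraries, without reaching the threshold (log2 fold change -0.49 ± 0.25, adjusted p = 0.15). The DU145 calls of NDC80 and ZWINT were lost without DU145 resistant replicate 1 or DU145 sensitive replicate 2 (adjusted p up to 0.143 and 0.234). The other NDC80 complex genes did not pass, with log2 fold changes in DU145 and PC3 of -0.04 and 0.13 for NUF2, -0.19 and -0.25 for SPC24, and 0.56 and 0.45 for SPC25. Also without a call were CENPA, the histone H3 variant of centromeres, CENPE, a kinesin of the kinetochore, CENPF and KNTC1, which encodes ROD, with log2 fold changes of -0.34 to 0.04 in DU145 and -0.41 to 0.35 in PC3.

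The 8 genes grouped as kinesins, motors that move along or shorten microtubules, had fitted log2 fold changes above 0 in DU145 (median 0.42). Of all 53 members, 34 were above 0 there. The KIF11 libraries overlapped between resistant and sensitive cells in both lines. Of the 8 kinesins only KIF20B and KIF23 passed. In PC3 the median of the 8 was -0.14 and only KIF18A passed, in the direction of lower levels. CENPE, a kinesin grouped with the kinetochore genes, had -0.13 in DU145. Of kinesins outside the 53, KIF15 and KIF18B had 0.33 and 0.10 in DU145, and KIF22 and KIFC1 had -0.20 and -0.44, with no call. In PC3, KIF22 was called higher (0.58, edgeR adjusted p = 0.0256). KIF20B (chr10:89701590-89774939), a motor of late mitosis and cytokinesis, had the largest change of all 53 genes in either line. Its values were 169.6 and 142 CPM in DU145 resistant libraries, against 66.1 and 55.2 CPM in DU145 sensitive libraries (log2 fold change 1.36 ± 0.16, edgeR adjusted p = 0.00016). Both resistant libraries were more than 2-fold above both sensitive ones. In PC3 the KIF20B groups overlapped, at 72.8 and 85.5 CPM in resistant and 82.0 and 70.2 CPM in sensitive libraries (log2 fold change 0.06 ± 0.16, adjusted p = 0.818). KIF23 (chr15:69414246-69448427), the kinesin of the centralspindlin complex that organises the midzone, had 266 and 193 CPM in DU145 resistant and 169 and 138 CPM in DU145 sensitive libraries (log2 fold change 0.58 ± 0.19, adjusted p = 0.0448). Its PC3 values were 126 and 158 CPM in resistant and 207 and 172 CPM in sensitive libraries, all resistant below all sensitive, without a call (adjusted p = 0.113). KIF18A (chr11:28020619-28108156), which limits chromosome oscillations by acting on microtubule plus ends and whose promoter letters are shown above, fell to 25.2 and 30.6 CPM in PC3 resistant libraries, against 43.3 and 45.5 CPM in PC3 sensitive libraries (log2 fold change -0.67 ± 0.17, adjusted p = 0.00957). In DU145 it had 63.5 and 49.0 CPM in resistant and 47.4 and 43.9 CPM in sensitive libraries, above but without a call (adjusted p = 0.206). The KIF23 call was lost without any of the same 5 libraries as that of BUB3 in DU145 (adjusted p up to 0.328), and the KIF18A call without PC3 resistant replicate 1 or PC3 sensitive replicate 2 (up to 0.0799). KIF4A, a chromokinesin, narrowly missed the threshold in DU145 (log2 fold change 0.62 ± 0.21, adjusted p = 0.0506). KIF11, the motor that separates the spindle poles, had log2 fold changes of 0.27 in DU145 and -0.21 in PC3, and KIF14, KIF20A and the microtubule depolymerase KIF2C ran from 0.29 to 0.47 in DU145 and from -0.07 to 0.19 in PC3, none of them past the threshold.

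Among the kinases, cyclins and passenger proteins, AURKB was higher under resistance in both lines, TPX2 was higher and CDC25B lower in DU145, and WEE1 was lower in PC3. AURKB (chr17:8204733-8210600) encodes Aurora B, the kinase that releases wrong attachments of chromosomes to the spindle. It was measured at 136 and 116 CPM in DU145 resistant and 96.3 and 80.4 CPM in DU145 sensitive libraries (log2 fold change 0.51 ± 0.16, edgeR adjusted p = 0.0327). In PC3 the values were 80.9 and 97.5 CPM in resistant and 52.4 and 45.3 CPM in sensitive libraries (log2 fold change 0.87 ± 0.16, adjusted p = 0.00185). Within each line no resistant library overlapped a sensitive one. The other members of the passenger complex did not pass in either line. BIRC5, the gene of survivin, had log2 fold changes of -0.48 in DU145 and -0.33 in PC3. INCENP, the scaffold, had -0.18 and 0.42, and CDCA8, which encodes borealin, 0.35 and -0.29. In PC3 the INCENP libraries separated, at 114 and 135 CPM in resistant and 95.5 and 90.2 CPM in sensitive cells (adjusted p = 0.0688). The BIRC5 resistant libraries lay below the sensitive ones in both lines, and those of CDCA8 in PC3. CDC25B (chr20:3786772-3806121), a phosphatase that activates CDK1 at the entry into mitosis, fell to 164 and 134 CPM in DU145 resistant libraries, against 304 and 294 CPM in DU145 sensitive libraries (log2 fold change -1.01 ± 0.21, adjusted p = 0.00505). In PC3, the resistant libraries were unlike each other, at 147 and 242 CPM, against 145 and 146 CPM in the sensitive ones (log2 fold change 0.42 ± 0.21, adjusted p = 0.143). WEE1 (chr11:9573670-9593457), the kinase that holds CDK1 inactive, fell to 22.9 and 25.5 CPM in PC3 resistant libraries, against 40.4 and 37.4 CPM in PC3 sensitive libraries (log2 fold change -0.69 ± 0.14, adjusted p = 0.00358). In DU145 it had 44.4 and 45.9 CPM in resistant and 60.2 and 53.5 CPM in sensitive libraries, below in both resistant libraries but without a call (adjusted p = 0.102).

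TPX2 (chr20:31739271-31801805), the activator of Aurora A on spindle microtubules, had 533 and 418 CPM in DU145 resistant and 343 and 281 CPM in DU145 sensitive libraries (log2 fold change 0.61 ± 0.18, edgeR adjusted p = 0.0312). Its PC3 libraries also separated, at 504 and 663 CPM in resistant and 442 and 402 CPM in sensitive cells, short of the threshold (log2 fold change 0.47 ± 0.18, adjusted p = 0.0692). TPX2 lost its DU145 call without DU145 resistant replicate 1 or DU145 sensitive replicate 2 (adjusted p up to 0.208), and AURKB lost its DU145 call without either of these or either PC3 sensitive library (up to 0.219). AURKA, the gene of Aurora A, had log2 fold changes of 0.26 in DU145 and 0.45 in PC3, and PLK1, the polo kinase of mitosis, -0.18 and 0.61 (adjusted p = 0.0607 in PC3). CDK1, the kinase that drives mitosis, and its cyclins CCNA2, CCNB1 and CCNB2 did not pass, with log2 fold changes between -0.29 and 0.27 in DU145 and between -0.40 and 0.44 in PC3. CDC25C, a further CDK1 phosphatase, had 0.37 in DU145 and -0.32 in PC3, also without a call.

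Of the anaphase and cytokinesis genes, UBE2C, PTTG1 and ANLN were higher in PC3 resistant cells, while FZR1 was higher and ECT2 lower in DU145 resistant cells. UBE2C (chr20:45812576-45816957) encodes the ubiquitin-conjugating enzyme that works with the APC/C. It was the most changed member in PC3, with 275 and 355 CPM in resistant and 165 and 126 CPM in sensitive libraries (log2 fold change 1.12 ± 0.18, edgeR adjusted p = 0.000878). In DU145 it had 116 and 101 CPM in resistant and 86.3 and 74.2 CPM in sensitive libraries, separated but not past the threshold (log2 fold change 0.44 ± 0.18, adjusted p = 0.0959). PTTG1 (chr5:160421855-160428739) encodes securin, the APC/C substrate that holds separase inactive. In PC3 it reached 161 and 193 CPM in resistant, against 100.3 and 90.3 CPM in sensitive libraries (log2 fold change 0.89 ± 0.17, adjusted p = 0.00219), and in DU145 it had 151 and 113 CPM in resistant and 117 and 106 CPM in sensitive libraries, with overlap. ANLN (chr7:36389821-36453791), the gene of anillin, a scaffold of the contractile ring, had 479 and 679 CPM in PC3 resistant and 312 and 288 CPM in PC3 sensitive libraries (log2 fold change 0.95 ± 0.18, adjusted p = 0.00257). In DU145 the resistant libraries lay below the sensitive ones, at 665 and 615 CPM in resistant and 731 and 884 CPM in sensitive cells, without a call (log2 fold change -0.33 ± 0.18, adjusted p = 0.201).

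FZR1 (chr19:3506311-3538334) encodes CDH1, the activator that takes over from CDC20 when the cell leaves mitosis, and is a different gene from the cadherin of that symbol. Its level was 95.5 and 80.4 CPM in DU145 resistant and 65.9 and 54.1 CPM in DU145 sensitive libraries (log2 fold change 0.55 ± 0.17, edgeR adjusted p = 0.0323). FZR1 shares 74 exon bases with MFSD12 on the opposite strand, which had mean counts of 2513 in DU145 resistant and 8423 in DU145 sensitive libraries, and the strand setting of the counting is not given. ECT2 (chr3:172750682-172821474), which activates RhoA for cytokinesis, had 458 and 444 CPM in DU145 resistant against 612 and 625 CPM in DU145 sensitive libraries (log2 fold change -0.46 ± 0.13, adjusted p = 0.0272). FZR1 lost its call without DU145 resistant replicate 1, DU145 sensitive replicate 2 or either PC3 sensitive library (adjusted p up to 0.212), and ECT2 without any 1 of the DU145 or PC3 sensitive libraries or of the DU145 resistant libraries (up to 0.116). CDC20, the APC/C activator that the checkpoint holds back, had log2 fold changes of 0.08 in DU145 and -0.38 in PC3, CDC27, an APC/C subunit, 0.22 and -0.28, ESPL1, which encodes separase, -0.17 and 0.14, and PRC1, which bundles midzone microtubules, -0.14 and -0.22. None of these passed.

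In PC3 resistant cells 3 of the 5 genes of spindle and chromosome proteins were higher, beside 18.6% of all tested genes. In DU145 resistant cells TOP2A was lower, beside 15.4% of all tested genes. HMMR (chr5:163460203-163491941), a spindle protein that works with TPX2, had 185 and 258 CPM in PC3 resistant and 131 and 133 CPM in PC3 sensitive libraries (log2 fold change 0.75 ± 0.17, edgeR adjusted p = 0.00575). MKI67 (chr10:128096659-128126423), the proliferation marker that coats mitotic chromosomes, had 448 and 578 CPM in PC3 resistant and 329.9 and 334 CPM in PC3 sensitive libraries (log2 fold change 0.63 ± 0.15, adjusted p = 0.00835). NUSAP1 (chr15:41320794-41381050), a microtubule-binding protein of the spindle, had 308 and 413 CPM in PC3 resistant and 281 and 217 CPM in PC3 sensitive libraries (log2 fold change 0.54 ± 0.18, adjusted p = 0.0354). The resistant libraries were above the sensitive ones for these 3 genes, most in PC3 resistant replicate 2. Their DU145 values were 112 and 102 CPM in resistant and 109.7 and 95.1 CPM in sensitive libraries for HMMR. They were 527 and 516 CPM in resistant and 427 and 449.9 CPM in sensitive libraries for MKI67. For NUSAP1 they were 274 and 257 CPM in resistant and 298 and 281 CPM in sensitive libraries, and none of the 3 passed in DU145. TOP2A (chr17:40388525-40417896), the topoisomerase that untangles sister chromatids, fell to 1117 and 936 CPM in DU145 resistant libraries, against 1654 and 1518 CPM in DU145 sensitive libraries (log2 fold change -0.63 ± 0.18, adjusted p = 0.0231). In PC3 the groups overlapped, at 399 and 545 CPM in resistant and 451 and 409 CPM in sensitive libraries. DLGAP5, a spindle protein needed for stable kinetochore fibres, had log2 fold changes of 0.12 in DU145 and -0.12 in PC3. Without PC3 resistant replicate 2 the adjusted p of HMMR was 0.0595, and NUSAP1 and MKI67 were lost without it or PC3 sensitive replicate 2, and MKI67 also without PC3 sensitive replicate 1 (up to 0.286 and 0.0822). The TOP2A call was lost without DU145 resistant replicate 2 or either DU145 sensitive library (up to 0.126). NUSAP1 shares exon bases with OIP5-AS1 on its own strand and with OIP5 on the other, and how such reads were assigned is not given.

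The transcription factors of the set passed the threshold in 1 line each. The difference between lines did not pass for either (edgeR adjusted p = 0.0944 for MYBL2 and 0.0554 for FOXM1). MYBL2 (chr20:43667019-43716495) encodes B-MYB, which joins the MuvB complex at promoters of the kind shown above. It had 272 and 158 CPM in DU145 resistant and 131 and 78.7 CPM in DU145 sensitive libraries (log2 fold change 1.04 ± 0.29, edgeR adjusted p = 0.0212), with a wide spread within both groups. In PC3 it had 273 and 220.0 CPM in resistant and 265 and 199 CPM in sensitive libraries, with overlap (adjusted p = 0.836). FOXM1 (chr12:2857680-2877174), the forkhead factor of G2 and M transcription, had 355 and 326 CPM in PC3 resistant and 205 and 190.3 CPM in PC3 sensitive libraries (log2 fold change 0.79 ± 0.19, adjusted p = 0.00832). In DU145 it had 193 and 125 CPM in resistant and 161 and 145 CPM in sensitive libraries, with overlap (adjusted p = 0.861). The MYBL2 call was lost without DU145 resistant replicate 1 or DU145 sensitive replicate 2 (adjusted p up to 0.188), and the FOXM1 call without PC3 sensitive replicate 2 (0.0676). FOXM1 shares 782 exon bases with ITFG2 on the opposite strand, which had mean counts of 516 in PC3 resistant and 262.5 in PC3 sensitive libraries, against 14361 and 6296 for FOXM1.

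**Figure D3:**
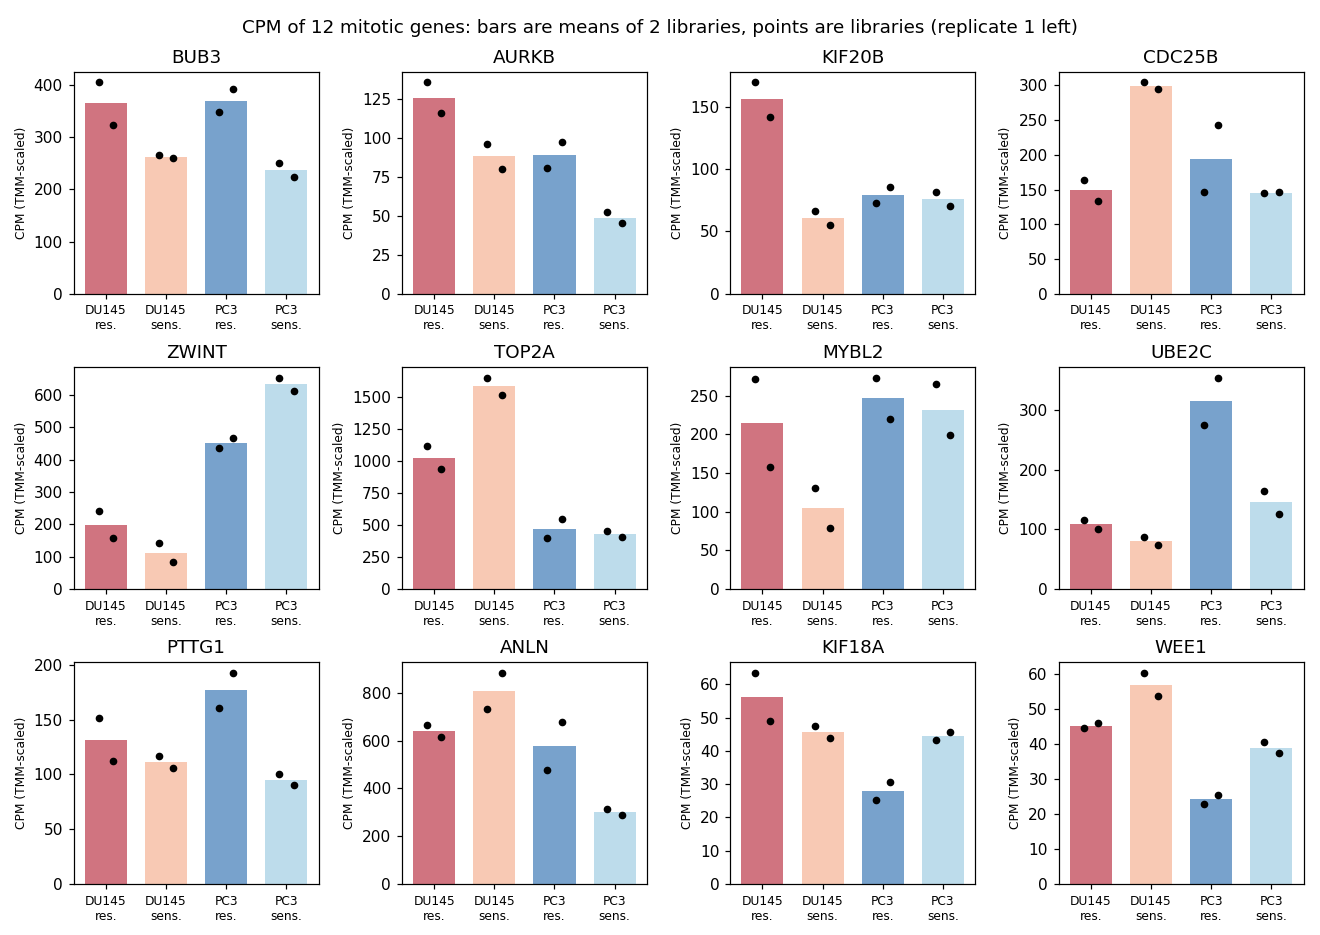
CPM of 12 mitotic genes that the text describes, 1 panel each with its own y axis from 0. Bars are means of 2 libraries and points are the libraries, with replicate 1 on the left, and each line has its resistant group left of its sensitive group. In KIF20B both DU145 resistant libraries, at 169.6 and 142 CPM, lie above all other libraries, and in UBE2C both PC3 resistant libraries, at 275 and 355 CPM, do.

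The resistance differences of the lines were then set side by side. The log2 fold change had the same sign in both lines for 23 of the 53 genes and opposite signs for 30. Across the 53 genes, which are not independent replicates, Pearson's r of the log2 fold changes was -0.01 and Spearman's rho 0.00. A test of the PC3 difference minus the DU145 difference called 4 members positive and 5 negative, 17% of the members beside 34.3% of all tested genes (18.5% positive, 15.9% negative). Scaled by library totals alone, 12 were positive and 5 negative. That scaling also moved the median difference of all tested genes from 0.03 to 0.14. The positive ones were CDC25B (1.42 ± 0.29, edgeR adjusted p = 0.00392), ANLN (1.28 ± 0.26, adjusted p = 0.00333), TOP2A (0.76 ± 0.25, adjusted p = 0.0373) and HMMR (0.68 ± 0.24, adjusted p = 0.0457). The negative ones were ZWINT (-1.32 ± 0.35, adjusted p = 0.0144), KIF20B (-1.31 ± 0.22, adjusted p = 0.00131), KIF23 (-1.001 ± 0.27, adjusted p = 0.0161), KIF18A (-0.97 ± 0.23, adjusted p = 0.0088) and KIF4A (-0.94 ± 0.30, adjusted p = 0.0332). Of the 5 negative genes 4 were kinesins. The difference was below 0 for all 8 genes grouped as kinesins, with a median of -0.71. Over all 53 members it was above 0 for 23, with a median of -0.11. Kinesins outside the 53 were mixed. KIF22 was called positive (0.78, edgeR adjusted p = 0.0333) and KIFC1 had 0.72 without a call, while KIF15 had -0.27 and KIF18B -0.04. The difference of the remaining 44 of the 53 genes did not pass. This leaves 11 of the 19 genes called in only 1 line without a shown difference between lines. KIF20B, KIF18A, CDC25B and ANLN kept this call whichever single library was left out. The others lost it without at least 1 library, and the count of positive members ran from 2, without DU145 resistant replicate 2, DU145 sensitive replicate 1, PC3 resistant replicate 2 or PC3 sensitive replicate 2, to 8, without DU145 resistant replicate 1 or PC3 resistant replicate 1. The count of negative members ran from 2 without DU145 resistant replicate 1 to 12 without DU145 resistant replicate 2.

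**Figure D4:**
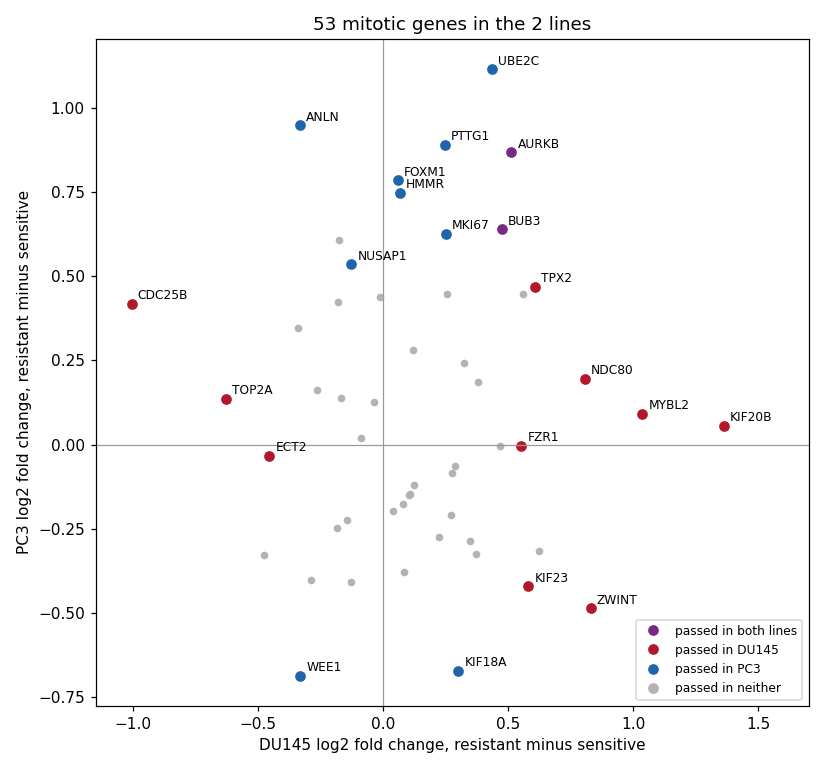
Log2 fold change, resistant minus sensitive, in DU145 (x axis) and PC3 (y axis) of the 53 mitotic genes. Colors give the line in which a gene passed an adjusted p under 0.05 (edgeR). AURKB (0.51 and 0.87) and BUB3 (0.47 and 0.64) passed in both lines, 19 genes passed in 1 line and 32 in neither.

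The sensitive lines differed from each other in 16 of the 53 genes, with 8 higher and 8 lower in PC3, which is 30.2% of the members beside 57.8% of all tested genes (28.6% higher, 29.2% lower). The largest absolute log2 fold change was that of ZWINT, at 654 and 612 CPM in PC3 sensitive and 141 and 82.9 CPM in DU145 sensitive libraries (log2 fold change 2.50 ± 0.26, edgeR adjusted p = 1.48e-05). TOP2A was the farthest in the other direction, at 451 and 409 CPM in PC3 sensitive and 1654 and 1518 CPM in DU145 sensitive libraries (log2 fold change -1.88 ± 0.18, adjusted p = 8.87e-06). ANLN followed with 312 and 288 CPM in PC3 sensitive and 731 and 884 CPM in DU145 sensitive libraries (log2 fold change -1.43 ± 0.19, adjusted p = 7.27e-05). In these 3 genes the lines did not overlap. ECT2 was lower in PC3, at 291 and 284 CPM in PC3 sensitive and 612 and 625 CPM in DU145 sensitive libraries (log2 fold change -1.11 ± 0.14, adjusted p = 4.75e-05). Survivin, encoded by BIRC5 (chr17:78214186-78225636), was higher in PC3, at 468 and 409 CPM in PC3 sensitive and 220.0 and 186 CPM in DU145 sensitive libraries (log2 fold change 1.11 ± 0.19, adjusted p = 0.000578). MYBL2 was also higher, at 265 and 199 CPM in PC3 sensitive and 131 and 78.7 CPM in DU145 sensitive libraries (log2 fold change 1.14 ± 0.29, adjusted p = 0.00567), a call lost without DU145 sensitive replicate 2 (0.0578). The others higher in PC3 were CDC25C, UBE2C, KIF4A, CDC27 and KIF2C, with log2 fold changes of 0.55 to 0.94, and the others lower were CDC25B, AURKB, KIF11, WEE1 and MKI67, with -1.04 to -0.40. Of these, KIF2C, KIF4A, KIF11, WEE1 and MKI67 lost their calls without at least 1 library (adjusted p up to 0.351). Without DU145 sensitive replicate 2, 5 genes were higher in PC3, and 5 were lower without DU145 sensitive replicate 1 or PC3 sensitive replicate 2. In 22 members both PC3 sensitive libraries lay above both DU145 sensitive ones and in 19 below, beside 39.8% and 40.6% of all tested genes. This contrast uses the same sensitive libraries as the resistance comparisons. Per kilobase of exon, the levels in PC3 sensitive cells were led by ZWINT (266 CPM per kilobase), CCNB1 (125) and TPX2 (117), and in DU145 sensitive cells by TOP2A (249), ANLN (135) and CDC20 (120.0). MAD1L1 was the lowest in both, with 3.80 CPM per kilobase in PC3 sensitive and 3.58 in DU145 sensitive cells.

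Other genes of cell division were counted in lists that hold none of the 53. Of all tested genes, 12.4% were higher and 15.4% lower in DU145 resistant cells, and 18.6% were higher and 17% lower in PC3 resistant cells. Of 13 further APC/C subunits, 0 were higher and 6 lower in PC3 resistant cells (median log2 fold change -0.39), and 3 were higher and 2 lower in DU145 resistant cells (median 0.13). The test of the difference between lines called 7 of the 13, all of them negative, beside 34.3% of all tested genes, and it called 7 of the 12 genes of the DREAM and MuvB list below, 3 positive and 4 negative. ANAPC10, a subunit of substrate binding, had 7.83 and 7.15 CPM in PC3 resistant and 16.7 and 15.3 CPM in PC3 sensitive libraries (log2 fold change -1.09, edgeR adjusted p = 0.00073). CDC23, a scaffold subunit, had 107 and 115 CPM in DU145 resistant and 70.4 and 72.0 CPM in DU145 sensitive libraries, and 84.0 and 81.9 CPM in PC3 resistant and 126 and 112 CPM in PC3 sensitive libraries, with calls of opposite sign (log2 fold changes 0.64 and -0.52, adjusted p = 0.00358 and 0.00813). Of 14 inner kinetochore genes, 4 were higher in DU145, led by CENPK (log2 fold change 1.18), and 5 were higher and 2 lower in PC3, led by CENPC (0.85), which links centromeric chromatin to the outer kinetochore. Of 10 outer kinetochore partners, 3 were higher in DU145, with SKA3 (0.99), which helps to hold shrinking microtubules, ahead, and 2 were higher and 3 lower in PC3. DSN1, a subunit of the MIS12 complex, was higher in both lines (0.62 in DU145, 0.88 in PC3). Condensin and cohesin genes, which fold and hold sister chromatids, had 5 of 15 higher and 0 lower in DU145, with a median of 0.44, and 2 higher and 1 lower in PC3, where NCAPD2 reached 1.04. Of 24 spindle pole and other spindle genes, 2 were higher and 2 lower in DU145, where the augmin subunit HAUS4 fell most (-1.75), and 2 were higher and 4 lower in PC3. These are 16.7% and 25% of the list, below the 27.8% and 35.6% of all tested genes called in the same lines. Outside mitosis, 0 of 18 G1/S and replication genes were higher and 1 lower in DU145, and 2 were higher and 1 lower in PC3. Of 12 genes of the DREAM and MuvB complexes and their regulators, 2 were higher and 2 lower in DU145, and 3 were higher and 2 lower in PC3, with RBL1, the gene of the pocket protein p107, higher in both (0.87 in DU145, 1.36 in PC3).

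**Figure D5:**
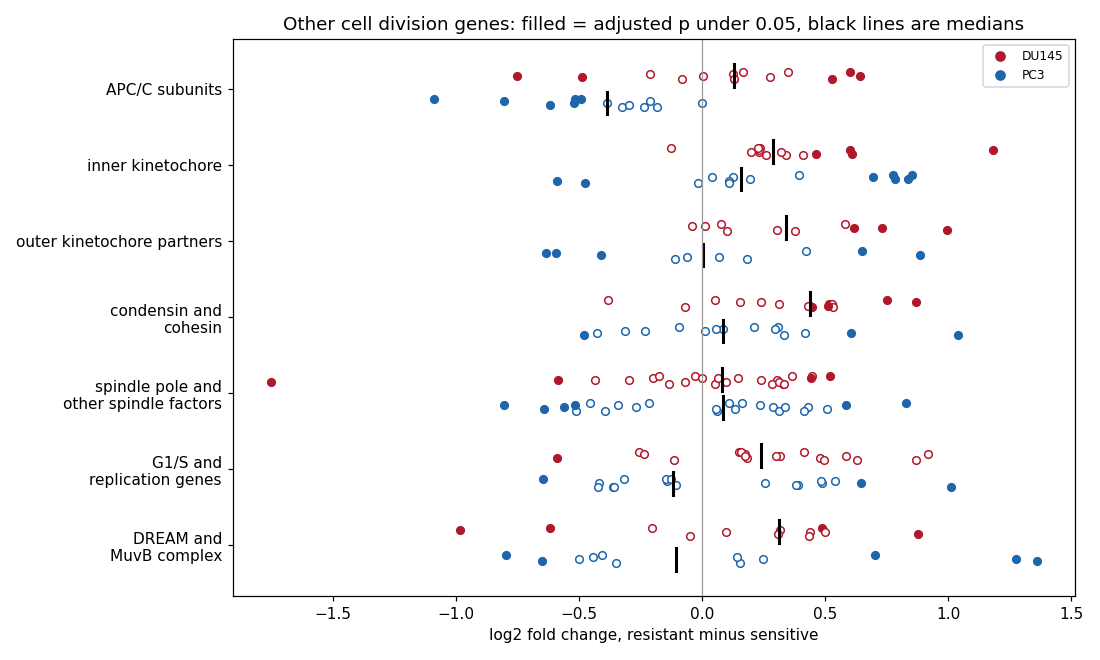
Log2 fold change, resistant minus sensitive, of genes in 7 further cell division lists. Red points above are DU145 and blue points below are PC3, each point is 1 gene, filled points passed an adjusted p under 0.05 (edgeR), and black lines are medians. The APC/C subunits have a median of 0.13 in DU145 and of -0.39 in PC3.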

How the data were processed

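Bulk RNA-seq was analysed in 8 libraries, grouped by the sample labels into 4 groups of 2. For each library the authors deposited a file of raw gene counts. Per the labels, libraries came from a SMART-seq mRNA kit, and the submitters' processing notes name Bowtie and hg38. Not given in the sources used here are the counter, its annotation, the strand setting and how reads with several matches were treated. No molecular identifiers were used.

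Genes were filtered by filterByExpr by group (20238 left of 60554 rows), scaled by TMM (factors 0.951 to 1.04) and fitted with 1 mean per group over the 8 libraries by edgeR 4.0.16 (R 4.3.3, limma 3.58.1). With 4 residual degrees of freedom, the common biological coefficient of variation came to 17.1%. Contrasts used quasi-likelihood tests, adjusted over all tested genes after Benjamini and Hochberg, at a threshold of 0.05. The standard error of a log2 fold change was its absolute value over the square root of the F statistic. Coordinates, exon lengths and overlaps come from GENCODE 44 and promoters from RefSeq on GRCh38.p14. In all, 20 of the 53 genes share exon bases with another gene, and CDC20P1 had counts of up to 5.92% of those of CDC20, so their counts are uncertain by that much.

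The 53 genes, 7 further cell division lists and 5 cell type marker lists were chosen with earlier results of these data known, and 2 luminal markers are not reported here. Library values are given, per role, for up to 4 genes with the largest change past the threshold, for genes past it in both lines, and for the 6 largest differences between the lines and between the sensitive lines, and of each further list up to 3 genes are named. Alternatives were RLE and library total scaling, DESeq2 1.42.0, no filter, at least 1 CPM in 4 libraries, only the compared libraries, a block for the replicate number, omission of single libraries, an adjusted p under 0.01 and a limit of 2-fold. The steps were tested on simulated data.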

Additional observations from a re-analysis of the deposited data

Results flagged for a closer look

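For 9 of the mitotic genes the resistance difference itself differed between the lines by the edgeR test of the PC3 difference minus the DU145 difference. On the log2 scale this was 1.42 for CDC25B, 1.28 for ANLN, 0.76 for TOP2A and 0.68 for HMMR. It was -1.32 for ZWINT, -1.31 for KIF20B, -1.001 for KIF23, -0.97 for KIF18A and -0.94 for KIF4A. For KIF4A neither line passed on its own, with log2 fold changes of 0.62 in DU145 and -0.32 in PC3, and its call was lost without any of 5 libraries, with an adjusted p up to 0.137. The calls of TOP2A and HMMR were each lost without any of 6 libraries, with an adjusted p up to 0.152 and 0.188, and that of KIF23 without any of 4, with an adjusted p up to 0.0698. The call of ZWINT was lost without DU145 resistant replicate 1 (adjusted p = 0.0513). Groups of 2 libraries are too small to look for a single library far from the rest of its group.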

How the results depend on the processing

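No call of a mitotic gene changed direction under any alternative run. Of the 48 calls over the 4 contrasts, 48 remained with library total scaling, with DESeq2, with no filter and with the filter of 1 CPM in 4 libraries, and 47 with RLE scaling, where the HMMR difference between lines was lost. With the compared libraries alone, 34 of 39 remained, and those lost were the DU145 calls of BUB3, ZWINT, KIF23, AURKB and ECT2. Leaving out 1 library lost 4 to 17 of the 48, an adjusted p under 0.01 lost 19 and the 2-fold limit lost 32.

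The member counts moved as follows. They are not set beside the share of all tested genes under the same setting, so a general change in calls is not separated. In DU145, higher genes numbered 5 with the compared libraries alone, 1 at an adjusted p under 0.01 and 2 at the 2-fold limit, and lower genes 1 at either of these last limits. In PC3, higher genes numbered 15 with no filter and 1 at the 2-fold limit, and lower genes 5 with the compared libraries alone and 0 at the 2-fold limit. The difference between lines had 12 positive genes with library total scaling, 10 with no filter, 10 with the 1 CPM filter, 2 at an adjusted p under 0.01 and 2 at the 2-fold limit, and 2 and 3 negative genes at these last limits. Between the sensitive lines, 15 were higher with those libraries alone, and 3 were higher and 4 lower at the 2-fold limit. Over the fits without 1 library, DU145 had between 1 and 15 higher genes and between 1 and 5 lower genes. PC3 had between 5 and 13 higher genes and between 1 and 3 lower genes. The difference had 2 to 8 positive and 2 to 12 negative genes, and the sensitive lines differed by 5 to 12 higher and 5 to 8 lower genes. Library total scaling moved the median log2 fold change of all genes to 0.11 (PC3) and 0.14 (difference between lines), beside 0.01 and 0.03 with TMM.

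The labels give the replicate numbers 1 and 2 in each group but do not say that they pair libraries. With the replicate number as a block, 14 genes were higher and 8 lower in PC3, the difference between lines had 12 positive and 11 negative genes (among them 7 of the 11 genes called in 1 line whose difference otherwise did not pass), and 14 were lower between the sensitive lines. KIF2C lost its call between the sensitive lines with the block. The deviations of same-numbered libraries had a correlation of 0.323 in DU145 and 0.0861 in PC3 across all genes, and of 0.639 in DU145 and 0.126 in PC3 across the 53 members.

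Groups of 2 libraries limit these calls. The smallest absolute log2 fold change called was 0.46 in DU145 and 0.54 in PC3. Some larger changes were not called, among them KIF4A (0.62) and SPC25 (0.56) in DU145 and PLK1 (0.61) in PC3. At an unadjusted p under 0.05, 19 members passed in DU145 and 17 in PC3. The cause of the shared shift of the mitotic genes between replicates was not tested.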

Other observations

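The mitotic genes lie on 18 chromosomes, and 5 of them, MYBL2, TPX2, UBE2C, AURKA and CDC25B, lie on chromosome 20. In PC3 all 5 had positive log2 fold changes, with a median of 0.45, and the median over all 558 tested genes of chromosome 20 was also 0.45, with 36.2% of them higher and 3.58% lower in resistant cells. Of the 5 members only 1, UBE2C, was called in PC3. The DU145 calls among the 5 members were 2 higher and 1 lower. Their DU145 median was 0.44, beside 0.18 over the chromosome, where 22% of the genes were higher and 15.6% lower. The 6 genes on chromosome 10 were BUB3, ZWINT, KIF11, KIF20B, CDK1 and MKI67. In DU145, 3 of the 6 were higher, with a median of 0.37, beside -0.14 over the 805 tested genes of that chromosome, of which 11.8% were higher and 22.6% lower. In PC3, 2 of the 6 were higher, with a median of 0.25, beside -0.04 over the chromosome, where 17.4% of the genes were higher and 18.4% lower. On chromosome 5, 5 members had medians of 0.27 in DU145 and 0.00 in PC3, beside 0.24 in each line over 904 genes.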
